A study of Mus musculus with 14 samples.

Results

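The transcripts described here come from 10 genes of the hepatic stellate cell and of the collagen matrix of the liver: *Col1a1*, *Col1a2*, *Col3a1*, *Col4a1*, *Col4a2*, *Col14a1*, *Dcn*, *Lrat*, *Reln* and *Des*. They were taken by gene name from the 55487 genes of the count table, where each symbol stood for 1 gene, and all 10 were among the 12653 genes with enough reads to be tested. RNA was sequenced from the right liver lobe of 14 adult male TALLYHO/JnG mice, an inbred strain that carries several risk loci and in which males develop glucose intolerance and insulin resistance. Of these mice, 7 received 20 mg/kg indole, a product of tryptophan breakdown by gut bacteria, and 7 received its vehicle, water, both by oral gavage with 2 doses per day on 7 consecutive days. All 14 mice also received 2 further doses of the same agent between the metabolic tests that followed, and each library stands for 1 mouse. The question addressed here is whether transcripts of these cells and of their matrix differed between indole-treated and vehicle-treated livers, and how they varied from mouse to mouse. Mice carry the numbers of the labels, G1 to G14.

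Hepatic stellate cells lie between hepatocytes and the sinusoidal endothelium. In the quiescent state they store vitamin A as retinyl esters, and in an injured liver they become myofibroblasts and are a main source of fibrillar collagen. Type I collagen is a triple helix of products of *Col1a1* and *Col1a2*, type III collagen is a helix of *Col3a1* chains alone, and type IV collagen, the network of basement membranes, is assembled mainly from *Col4a1* and *Col4a2* chains. Stellate cells make up a small share of liver cells, so in whole-lobe RNA fewer stellate cells and less RNA per stellate cell cannot be told apart.

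RefSeq promoters on GRCm38.p6, from 250 bases before to 50 after the annotated start, were at hand for 7 of the 10 genes. Those of *Col1a2* (chr6:4505368-4505667, plus strand) and *Col3a1* (chr1:45311288-45311587, plus strand) are shown as the genes of fibrillar collagen among these 7. Those of *Col4a1* (chr8:11312777-11313076, minus strand) and *Col4a2* (chr8:11312555-11312854, plus strand) are shown because both genes start from one shared region. Sequences run 5′ to 3′ on the strand of the gene, and capitals mark the TATA box letters TATAAA, the CCAAT box and the GC box letters GGGCGG, each on either strand.
Col1a2: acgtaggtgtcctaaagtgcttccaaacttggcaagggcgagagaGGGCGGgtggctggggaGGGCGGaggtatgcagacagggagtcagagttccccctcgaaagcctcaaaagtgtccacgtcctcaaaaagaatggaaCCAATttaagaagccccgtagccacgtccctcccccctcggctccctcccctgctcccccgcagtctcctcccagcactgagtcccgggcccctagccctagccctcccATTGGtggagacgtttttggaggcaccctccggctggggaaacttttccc
Col3a1: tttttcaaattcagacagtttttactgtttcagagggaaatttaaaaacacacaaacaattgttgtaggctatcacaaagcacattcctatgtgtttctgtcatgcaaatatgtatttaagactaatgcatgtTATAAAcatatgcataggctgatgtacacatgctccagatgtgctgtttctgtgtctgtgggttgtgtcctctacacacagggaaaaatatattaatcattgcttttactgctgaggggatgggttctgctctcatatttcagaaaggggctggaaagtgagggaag
Col4a1: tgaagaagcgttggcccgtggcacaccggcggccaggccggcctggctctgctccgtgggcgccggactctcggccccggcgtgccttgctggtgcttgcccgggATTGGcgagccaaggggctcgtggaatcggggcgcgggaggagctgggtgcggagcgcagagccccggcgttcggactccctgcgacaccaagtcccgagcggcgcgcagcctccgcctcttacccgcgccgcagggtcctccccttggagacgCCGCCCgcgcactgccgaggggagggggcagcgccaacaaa
Col4a2: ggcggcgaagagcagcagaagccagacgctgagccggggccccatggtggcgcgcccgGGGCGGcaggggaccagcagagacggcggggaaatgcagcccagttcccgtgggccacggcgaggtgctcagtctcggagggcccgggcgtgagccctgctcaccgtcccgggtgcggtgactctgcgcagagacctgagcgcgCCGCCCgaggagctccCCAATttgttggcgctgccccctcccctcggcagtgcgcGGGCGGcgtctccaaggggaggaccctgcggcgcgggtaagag
Of the 4 promoters, *Col3a1* alone held TATAAA, 117 bases before its start, and its GC content of 37.7% was lower than the 61.0% of *Col1a2*, the 74.0% of *Col4a1* and the 73.7% of *Col4a2*. *Col1a2* held CCAAT from 109 bases before its start and again on the other strand at the start, and GGGCGG at positions −205 and −188. The windows of *Col4a1* and *Col4a2* overlapped by 78 bases and their starts lay 21 bases apart, on opposite strands. One GGGCGG lies in the stretch that both windows share, and *Col4a2* holds CCAAT 32 bases before its start. No marked motifs overlapped each other in these windows. Among 32851 mouse promoters of the same length, 13.6% held TATAAA, 37.4% held CCAAT and 35.7% held GGGCGG on either strand, so these motifs are common and their presence is a description only.

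Reads counted on genes numbered 15197498 to 21060376 per mouse (median 17775932), and no library repeated another, since chi-square divided by its degrees of freedom was at least 16.9 over the 42 pairs of libraries of one group. Over all genes tested, edgeR's quasi-likelihood test gave 0 genes with an adjusted *p* below 0.05, 0.0% of those tested. An unadjusted *p* below 0.05 was found for 482 genes, or 3.81%, of which 288 were lower with indole, or 2.28%. limma voom also gave 0 genes past the adjusted threshold, with 551 at an unadjusted *p* below 0.05, and DESeq2 gave 1, the cytochrome P450 gene *Cyp2c29*, with 532. The median log2 fold change over all genes was 0.00, with 48.7% of genes lower, and the median SD of log2 CPM (the count per 1e6 counted reads after TMM scaling) over the 14 mice was 0.24.

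The defining stellate cell genes were present in every mouse. Per kilobase of gene length (FPKM, the CPM divided by the length deposited for the gene with the counts), the order over the 14 mice was *Dcn* at 24.1, *Col14a1* at 7.63, *Col4a2* at 6.07, *Col4a1* at 5.20, *Lrat* at 3.29, *Col3a1* at 2.996, *Reln* at 1.55, *Col1a2* at 1.25, *Des* at 1.17 and *Col1a1* at 1.11. *Dcn* lay above *Col14a1* in 14 of 14 mice, and *Col3a1* lay above *Reln* in 14 of 14. The neighbours *Lrat* and *Col3a1* kept their order in 8 of 14 mice, *Col1a2* and *Des* in 8 of 14, and *Des* and *Col1a1* in 7 of 14, so those neighbours were not separated beyond the spread between mice. The deposited lengths run from 3754 to 23738 bases, and how they were derived is not given in the sources used here. If they include exons that few transcripts of a gene use, its level is understated on this scale.

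The chains of fibrillar collagen had the lowest log2 fold changes of the 10 genes, that of *Col1a1* the lowest of all. *Col1a1* (ENSMUSG00000001506, chromosome 11 from 94936224 to 94953042 of GRCm38), which encodes the chain present in a pair in each type I helix, had 122 to 235 reads in each mouse given vehicle and 31 to 168 in each mouse given indole. Its level in the vehicle group was 6.68 CPM in the lowest mouse, 8.18 at the median and 12.1 in the highest. In the indole group the lowest mouse was at 1.75 CPM, the median at 5.89 and the highest at 8.99. Below every vehicle-treated mouse lay 5 of the 7 indole-treated mice, and G3 and G7 lay within the vehicle range. The means were 8.95±1.75 CPM (SD, *n*=7) with vehicle and 5.61±2.50 CPM (SD, *n*=7) with indole. The log2 fold change was −0.67 (standard error 0.257), a level 1.59-fold lower, with an unadjusted *p* of 0.0188 and an adjusted *p* of 0.998 from edgeR. In an exact permutation test on log2 CPM over the 3432 relabellings of the mice, the two-sided *p* was 0.0117. Read alone, this gene thus differed in mean between groups that overlapped, and the difference does not pass after adjustment over 12653 genes.

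*Col1a2* (ENSMUSG00000029661, chromosome 6 from 4504814 to 4541544) encodes the other chain of type I collagen. Vehicle-treated mice lay close together, at 15.4 CPM in the lowest, 17.6 at the median and 20.1 in the highest. Indole-treated mice ran from 5.24 CPM over a median of 14.5 to 18.6 in the highest, and 4 of the 7 lay below every vehicle-treated mouse. Between the groups *Col1a2* differed by −0.39 on the log2 scale (standard error 0.192, unadjusted *p*=0.0614, adjusted *p*=0.998, edgeR), and the exact permutation *p* on log2 CPM was 0.0268. Of the chains of type I collagen, then, edgeR put *Col1a1* below an unadjusted *p* of 0.05 and *Col1a2* above it, while the permutation test put both below.

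*Col3a1* (ENSMUSG00000026043, chromosome 1 from 45311538 to 45349706), the chain of type III collagen, was at 27.5, 32.5 and 39.2 CPM in the lowest, middle and highest vehicle-treated mouse. With indole the same ranks stood at 11.6, 26.9 and 40.4 CPM. Here 4 mice given indole were below the lowest mouse given vehicle while G3 and G7 were above the highest, so the groups overlapped fully. The log2 fold change was −0.34 (standard error 0.238, unadjusted *p*=0.181, adjusted *p*=0.998, edgeR), and the exact permutation *p* on log2 CPM was 0.114.

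**Figure D1:**
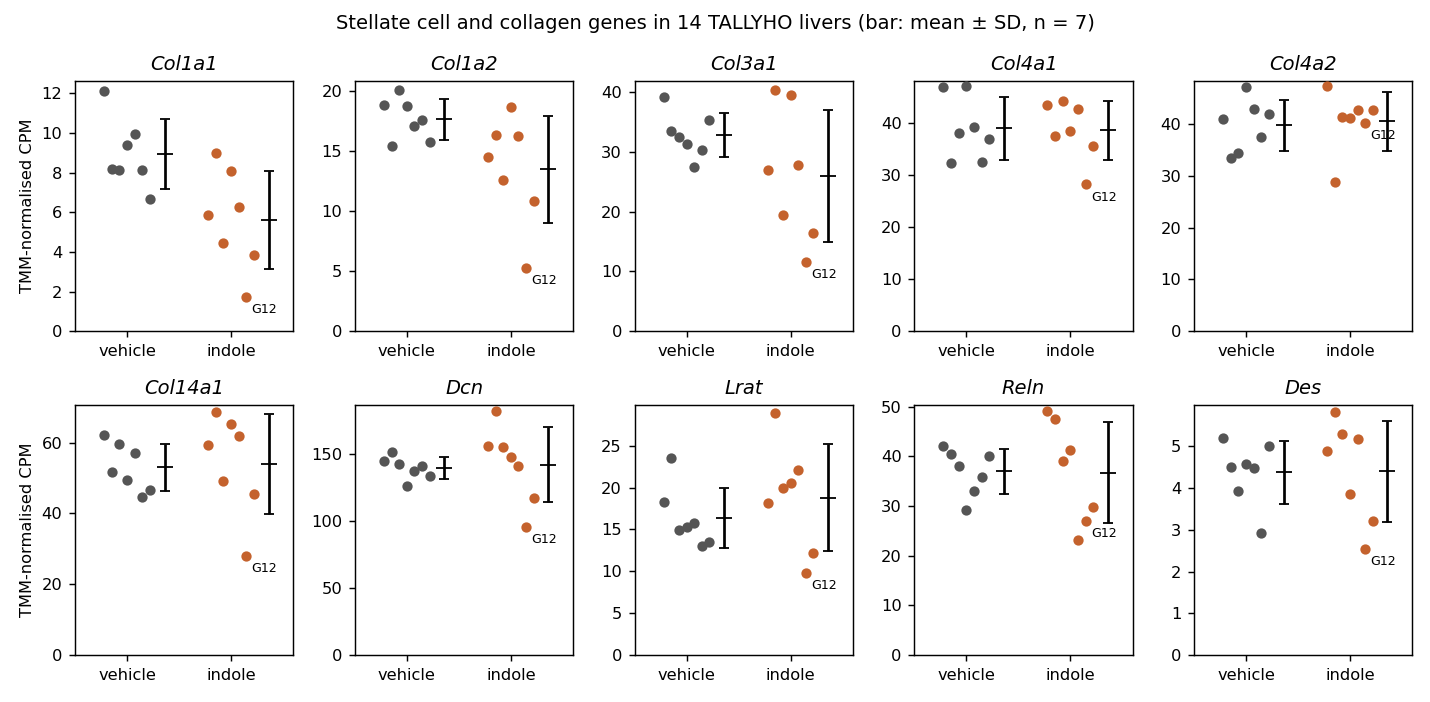
TMM-normalised CPM of the 10 genes in each vehicle-treated (grey) and indole-treated (orange) mouse, with the mean and SD of 7 mice beside the points and indole-treated mouse G12 named. For *Col1a1* 5 of 7 indole-treated mice lie below every vehicle-treated mouse, and G12 is the lowest indole-treated mouse in 8 of the 10 panels.

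*Col14a1* (ENSMUSG00000022371, chromosome 15 from 55307750 to 55520803) encodes a collagen that binds the surface of fibrils and does not form them. It was at 44.6, 51.6 and 62.1 CPM in the lowest, middle and highest vehicle-treated mouse. In the indole group the corresponding values were 28.02, 59.3 and 68.7 CPM, with the median above that of vehicle and 1 mouse, G12, below every vehicle-treated mouse. The difference on the log2 scale was 0.03, with an interval of 2 standard errors from −0.29 to 0.34 (adjusted *p*=0.998, edgeR). *Dcn* (ENSMUSG00000019929, chromosome 10 from 97479609 to 97518143), which encodes decorin, a proteoglycan that coats collagen fibrils, was the most abundant gene of the group. Vehicle-treated mice ranged narrowly, at 126 CPM in the lowest, 141.0 at the median and 151 in the highest, and indole-treated mice ran from 95.8 over 148 to 182 CPM. Its log2 fold change was 0.03 with an interval from −0.18 to 0.24.

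The chains of type IV collagen were alike in both groups on average. *Col4a1* (ENSMUSG00000031502, chromosome 8 from 11198423 to 11312826) had a mean of 39.0±6.06 CPM (SD, *n*=7) with vehicle and 38.6±5.64 CPM (SD, *n*=7) with indole, a log2 fold change of −0.02 with an interval from −0.23 to 0.20. *Col4a2* (ENSMUSG00000031503, chromosome 8 from 11312805 to 11449287) had means of 39.8±4.95 CPM and 40.6±5.70 CPM, a log2 fold change of 0.03 with an interval from −0.17 to 0.23. These gene models overlap by 22 bases on opposite strands, and although the libraries were strand-specific, the strand setting of the counting is not given in the sources used here, so reads on those bases are uncertain.

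The genes that mark the quiescent stellate cell had log2 fold changes from −0.01 to 0.20, each with an interval that includes 0. *Lrat* (ENSMUSG00000028003, chromosome 3 from 82892579 to 82903973) encodes lecithin retinol acyltransferase, the enzyme that makes retinyl esters for storage. It was at 13.1, 15.3 and 23.6 CPM in the lowest, middle and highest vehicle-treated mouse. With indole it was at 9.81, 20.0 and 29.0 CPM, with 5 of 7 mice above the vehicle median and 2, G12 and G14, below every vehicle-treated mouse. On the log2 scale the difference was 0.20 with an interval from −0.21 to 0.61 (unadjusted *p*=0.340, adjusted *p*=0.998, edgeR). *Reln* (ENSMUSG00000042453, chromosome 5 from 21884454 to 22344702), which encodes the secreted glycoprotein reelin, had a mean of 37.0±4.57 CPM (SD, *n*=7) and 36.7±10.2 CPM (SD, *n*=7), a log2 fold change of −0.01 with an interval from −0.31 to 0.29. *Des* (ENSMUSG00000026208, chromosome 1 from 75360329 to 75368579), which encodes the intermediate filament desmin and is also expressed by smooth muscle, was at 4.38±0.757 CPM and 4.402±1.22 CPM, a log2 fold change of 0.00 with an interval from −0.36 to 0.37. Over the 10 genes, 5 were lower and 5 higher, and 1, *Col1a1*, had an unadjusted *p* below 0.05, against 3.81% of all genes tested in either direction and 2.28% in the lower one.

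What set the indole group apart in most of these genes was its spread. The SD of log2 CPM was larger with indole than with vehicle for all 10 genes, against 60.7% of all genes tested. For *Col1a2* it was 0.14 with vehicle and 0.61 with indole, a ratio of 4.39 that exceeded the ratio of 99.7% of all genes. The ratio was 4.08 for *Col3a1*, 3.63 for *Dcn*, 2.87 for *Col1a1* and 2.46 for *Col14a1*, and it was 1.02 for *Col4a1* and 1.25 for *Col4a2*, near the 1.12 of the median gene. In part this rested on 1 mouse, since G12 was the lowest indole-treated mouse for 8 of the 10 genes, *Col4a2* and *Reln* being the others. Without G12 the ratio was 2.04 for *Col1a2*, 3.22 for *Col3a1*, 2.49 for *Dcn*, 1.72 for *Col1a1* and 1.29 for *Col14a1*, and the indole SD was the larger for 9 of the 10 genes, against 58.9% of all genes without that mouse. These ratios are given as a description, with no test, and the genes are not independent of one another.

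Ranked from 1 for the lowest to 14 for the highest mouse, G12 had a mean rank of 1.5 over the 10 genes and G14, also indole-treated, 3.4. The highest mean rank was 11.2, in vehicle-treated G1, followed by 10.9 in indole-treated G3. For *Col1a1*, *Col1a2* and *Col3a1* taken apart from the rest, indole-treated G2 and G5 had mean ranks of 4.0 and 3.0, while over the other 7 genes their mean ranks were 11.1 and 9.71. Vehicle-treated G11 showed the opposite order, at 8.67 over the fibrillar chains and 3.71 over the other 7 genes. The fibrillar chains and the other genes of the group thus ordered these mice differently.

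Most of the 10 genes, *Col4a2* excepted, went together over mice. Of their 45 pairs, 37 had a positive Pearson *r* of log2 CPM over the 14 mice, with a median *r* of 0.55 and a range from −0.43 to 0.94, and 18 had an adjusted *p* below 0.05 (permutation test with 100000 resamples, adjusted over the 45 pairs). Among those 18 pairs, 17 had a positive *r* within each group. An *r* of 0.8 was reached by 0 to 3 of the other 9 genes with any one of them, and by 0 for *Col4a1*, *Col4a2*, *Reln* and *Des*, where between 0.0316% and 0.467% of the 12643 genes outside the group reached it. The points share libraries, and so depth and cell mix, and the pairs share genes.

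The closest pair was *Col1a1* with *Col1a2*, the chains of type I collagen, with an *r* of 0.94 (permutation *p*=3e-05, adjusted *p*=0.00105) and a Spearman rho of 0.76 (permutation *p*=0.00231, adjusted *p*=0.026). Their *r* was 0.78 without G12 and G14, the mice farthest from the median, 0.47 within the vehicle group and 0.97 within the indole group. *Col1a1* with *Col3a1* gave an *r* of 0.92 (permutation *p*=7e-05, adjusted *p*=0.00105; rho 0.65, permutation *p*=0.0147, adjusted *p*=0.0735), which was 0.71 without G12 and G14, 0.13 within vehicle and 0.97 within indole. For *Col1a2* with *Col3a1* the *r* was 0.90 (permutation *p*=0.00014, adjusted *p*=0.00157; rho 0.65, permutation *p*=0.0133, adjusted *p*=0.0735), and it was 0.66 without G12 and G14, 0.03 within vehicle and 0.91 within indole. *Dcn* with *Lrat*, the matrix and retinoid markers of the quiescent cell, gave an *r* of 0.87 (permutation *p*=6e-05, adjusted *p*=0.00105; rho 0.80, permutation *p*=0.00101, adjusted *p*=0.026). It was 0.71 without G3 and G12, 0.62 within vehicle (exact permutation *p*=0.138) and 0.95 within indole (exact permutation *p*=0.00476). The *r* of this pair was thus positive in both groups, with an unadjusted exact *p* below 0.05 within indole only.

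The chains of type IV collagen had an *r* of 0.44 (permutation *p*=0.117, adjusted *p*=0.176) and a rho of 0.57 (permutation *p*=0.0362, adjusted *p*=0.125), with 0.48 when G9 and G12 were left out, 0.71 within vehicle and 0.23 within indole. *Col4a2* accounted for all 8 negative pairs, the lowest being that with *Dcn* at −0.43 (permutation *p*=0.122, adjusted *p*=0.176; rho −0.28, permutation *p*=0.322, adjusted *p*=0.494; 0.01 without G3 and G4, −0.86 within vehicle and −0.39 within indole). Within vehicle-treated mice the type IV pair had the higher *r* (0.71 against 0.47 for the type I pair) and within indole-treated mice the lower, and the difference between the pairs was not tested.

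**Figure D2:**
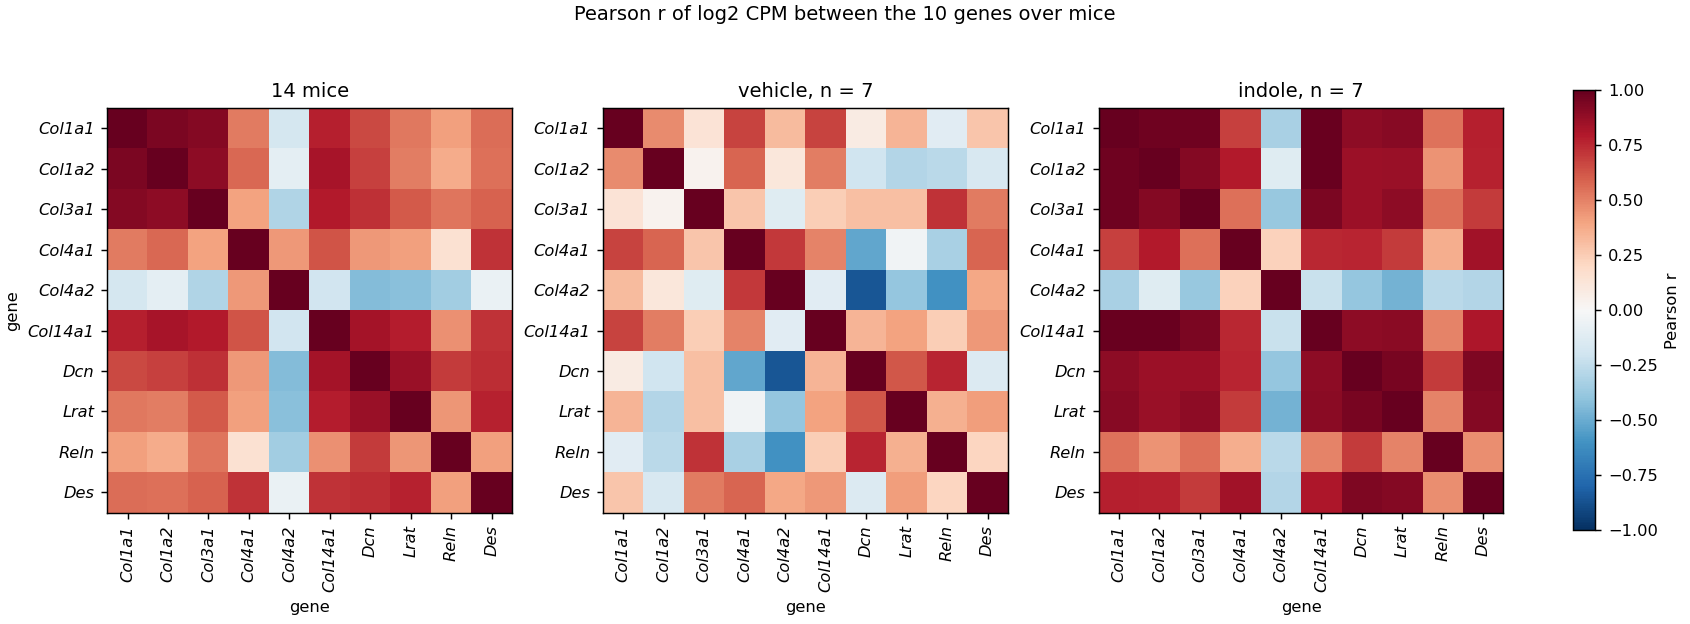
Pearson *r* of log2 CPM for each pair of the 10 genes over all 14 mice, over the 7 vehicle-treated mice and over the 7 indole-treated mice, from −1 (blue) to 1 (red). The median *r* over the 45 pairs is 0.28 within vehicle and 0.76 within indole, and *Col4a2* stands apart in the first and last panels.

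The strength of this pattern rested largely on G12. Without that mouse 4 of the 45 pairs had an adjusted *p* below 0.05, and with Spearman's rho in place of *r* there were also 4, whereas 26 pairs passed when the group means were removed first. Within the vehicle group the median *r* was 0.28 with 14 negative pairs, and within the indole group it was 0.76 with 8 negative pairs; the difference between the groups was not tested.

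In the indole group *Col1a1* and *Col14a1* went together from mouse to mouse (*r* 0.99, exact permutation *p*=0.000198), as did *Col1a2* and *Col14a1* (*r* 0.99, exact permutation *p*=0.000992). Within the vehicle group the same pairs gave an *r* of 0.67 (exact permutation *p*=0.0938) and 0.51 (exact permutation *p*=0.238). Over the 14 mice *Col1a1* and *Col14a1* gave an *r* of 0.78 (permutation *p*=0.00494, adjusted *p*=0.0151; rho 0.47, permutation *p*=0.0942, adjusted *p*=0.223), which was 0.27 without G12 and G14. For *Col1a2* and *Col14a1* the *r* over the 14 mice was 0.82 (permutation *p*=0.00457, adjusted *p*=0.0151; rho 0.53, permutation *p*=0.0519, adjusted *p*=0.152), and 0.27 without G12 and G14.

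The level of *Col1a1* relative to *Col14a1* separated the groups. The CPM of *Col1a1* was 13.7%, 17.5% and 19.5% of that of *Col14a1* in the lowest, middle and highest vehicle-treated mouse, and 6.24%, 9.92% and 13.1% in the indole group. Every indole-treated mouse, G12 and G3 included, lay below every vehicle-treated mouse. The mean log2 ratio differed by −0.78 (indole minus vehicle), with a two-sided exact permutation *p* of 0.000583, the smallest that 7 mice against 7 allow. For *Col1a2* the CPM was 29.9%, 33.7% and 39.3% of that of *Col14a1* with vehicle and 18.7%, 24.5% and 28.5% with indole, again without overlap, a log2 difference of −0.45 (exact permutation *p*=0.000583). Without G12 the differences were −0.68 and −0.39 (exact permutation *p*=0.000583 for each).

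These ratios were chosen after the data had been seen, from 45 ratios among the 10 genes, of which only these 2 did not overlap between the groups. *Col14a1* was not the only gene against which *Col1a1* was lower. The log2 ratio of *Col1a1* differed by −0.94 to *Lrat* (exact permutation *p*=0.00117, adjusted over the 45 *p*=0.0175) and by −0.79 to *Dcn* (*p*=0.00175, adjusted *p*=0.0197). To *Reln* it differed by −0.74, with an adjusted *p* of 0.0739. When each of the other 12652 genes tested was set against *Col14a1* in the same way, 2 genes, or 0.0158%, had every indole-treated mouse below every vehicle-treated mouse, and these were *Col1a1* and *Col1a2* themselves. That count covers the lower direction only. Since *Col14a1* was picked through the ratios of these 2 genes, both were bound to be in the count, and the share is no background for them. Adjusted over those 12652 genes, both had a *p* of 1.0, since the smallest exact *p* that 14 mice allow cannot pass for so few genes. The ratio of *Col3a1* to *Col14a1* differed by −0.43 on the log2 scale (exact permutation *p*=0.00991, adjusted *p*=1.0), with overlap, and those of the other members to *Col14a1* differed by −0.03 to 0.17.

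**Figure D3:**
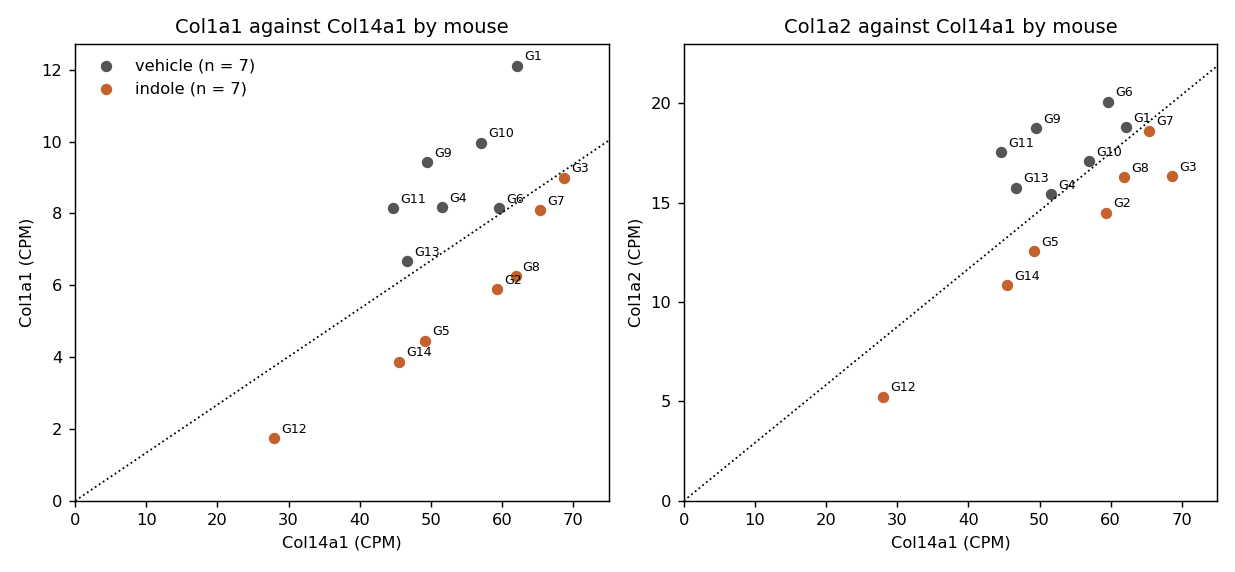
CPM of *Col1a1* (left) and of *Col1a2* (right) against the CPM of *Col14a1* in each of 14 mice, vehicle in grey and indole in orange, with a dotted line through the origin midway between the nearest mice of the groups. All 7 indole-treated mice lie below the line and all 7 vehicle-treated mice above it in both panels, from G12 at the lowest levels to G3 at the highest *Col14a1*.

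Since most of these genes varied together, the comparison was repeated with the level of other stellate cell markers in the fit. These were 7 genes outside the group described here (*Hgf*, *Ecm1*, *Colec11*, *Rgs5*, *Pdgfrb*, *Ngfr* and *Hand2*), summed to 205 to 271 CPM in vehicle-treated mice (median 249.3) and 162 to 323 CPM in indole-treated mice (median 283), with G12 the lowest of all 14. *Ecm1* was the largest part of that sum, at a mean of 128.7 CPM with vehicle and 135.2 CPM with indole. *Rgs5* came next, at 51.3 and 57.5 CPM. The summed level did not separate the groups (log2 difference 0.07, exact permutation *p*=0.647). With its log2 value as a covariate, a fit chosen with the data already in view, the log2 fold change of *Col1a1* was −0.91 (standard error 0.150, unadjusted *p*=7.59e-06 from edgeR). That was the smallest *p* of the 12653 genes, and its adjusted *p* of 0.0961 was still above 0.05. *Col1a2* came to −0.55 (standard error 0.122, unadjusted *p*=0.000247, adjusted *p*=0.781, edgeR), the fourth smallest *p* of all genes, and *Col3a1* to −0.53 (standard error 0.153, unadjusted *p*=0.0032, adjusted *p*=0.998, edgeR).

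In that fit edgeR gave 0 genes past the adjusted threshold and 523 with an unadjusted *p* below 0.05. *Lrat* came to 0.04, *Reln* to −0.08 and *Des* to −0.12 on the log2 scale, and *Col14a1* and *Dcn* to −0.09 and −0.05. Leaving out each mouse in turn, the log2 fold change of *Col1a1* in this fit lay between −0.97 and −0.79 and its adjusted *p* from edgeR between 0.0696 and 0.853, the weakest value being that without G12. Without that mouse *Col1a2* came to −0.38 (unadjusted *p*=0.00466, adjusted *p*=0.999, edgeR) and stood at place 34 by *p* among all genes, and *Col3a1* came to −0.44 (unadjusted *p*=0.0279, adjusted *p*=0.999, edgeR) at place 277.

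**Figure D4:**
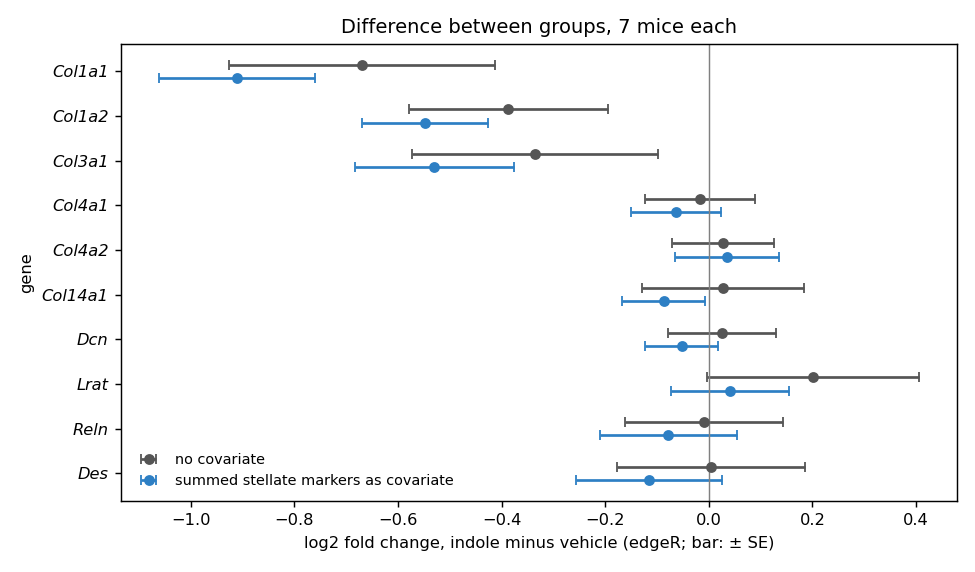
Log2 fold change (indole minus vehicle) of the 10 genes from edgeR, with its standard error as bars, without a covariate (grey) and with the summed level of 7 other stellate cell markers as a covariate (blue). *Col1a1* moves from −0.67 to −0.91, *Col1a2* from −0.39 to −0.55 and *Col3a1* from −0.34 to −0.53, and the other 7 genes lie between −0.12 and 0.20 in both.

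The chains of type I collagen were also set against each other. Per kilobase of gene length, the ratio of *Col1a1* to *Col1a2* was 0.961±0.163 (SD, *n*=7) with vehicle and 0.763±0.140 (SD, *n*=7) with indole (exact permutation test on the log2 ratio, *p*=0.0285), with overlap between the groups. This is 1 of the 45 ratios looked at, and adjusted over them its *p* was 0.0803, above 0.05. The corresponding ratio of *Col4a1* to *Col4a2* was 0.871±0.0966 with vehicle and 0.857±0.168 with indole. The absolute ratio depends on the deposited gene lengths and is not a count of chains.

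Other genes of the matrix were read as lists from the same fit, by counts only. Of 16 fibrillar and associated collagens 14 were tested, of which 12 were lower and 2 higher with indole, with a median log2 fold change of −0.24 against 0.00 for all genes. Without the 4 members in that list, 9 of 10 were lower, with a median of −0.23, and none of those 10 had an unadjusted *p* below 0.05 in edgeR. Among them, *Col6a1*, *Col6a2* and *Col6a3*, the chains of type VI collagen, came to −0.31, −0.30 and −0.33, and *Col18a1*, the most abundant of the list and a gene that hepatocytes express, to −0.11. The 16 tested genes of the basement membrane split into 10 lower and 6 higher, with a median of −0.02, and *Sparc*, which encodes a collagen-binding glycoprotein and was the most abundant, was at 0.11. The 25 tested genes of collagen folding, modification and crosslinking split into 14 lower and 11 higher with a median of −0.02, and *P4hb*, the subunit of prolyl 4-hydroxylase that also serves as a disulphide isomerase, was at −0.01.

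The small leucine-rich proteoglycans and matrix glycoproteins leaned lower, at 15 of 20 tested with a median of −0.11. Of the 20 tested, 3 had an unadjusted *p* below 0.05 from edgeR, all lower, against 2.28% of all genes tested in the lower direction. Each had an adjusted *p* of 0.998: *Fmod*, which encodes the fibril-binding fibromodulin, at −0.91 (unadjusted *p*=0.0130), *Eln*, which encodes elastin, at −0.55 (unadjusted *p*=0.0343), and *Fbln5*, which encodes a protein of elastic fibre assembly, at −0.36 (unadjusted *p*=0.0288). *Vtn*, the plasma glycoprotein vitronectin and the most abundant of them, was at 0.02. The 12 tested proteases and inhibitors split into 5 lower and 7 higher, with a median of 0.01. *Mmp14*, which encodes a membrane-bound collagenase, was at −0.26 (unadjusted *p*=0.0147, adjusted *p*=0.998, edgeR), with 6 of 7 indole-treated mice below every vehicle-treated mouse, and *Mmp19* was at 0.07. The share of all genes with 6 such mice was not counted.

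Of the 29 genes of TGF-beta and PDGF signalling, the main fibrogenic signals, 20 were lower and 9 higher with a median of −0.09. *Eng*, which encodes the co-receptor endoglin, was the most abundant and had an unadjusted *p* below 0.05, at 0.24 (unadjusted *p*=0.0365, adjusted *p*=0.998, edgeR). Of 25 tested genes of the quiescent, retinoid-storing stellate cell, 17 were higher and 8 lower with a median of 0.07, and *Ecm1* was at 0.07. Of 19 tested genes of the activated myofibroblast, 2 had an unadjusted *p* below 0.05 from edgeR, both lower, against 2.28% of all genes tested in that direction. Of the same 19 myofibroblast genes, 14 were lower and 5 higher with a median of −0.21, or 11 of 15 lower with a median of −0.15 once the 4 members were left out. The smooth muscle actin gene *Acta2*, a standard marker of that state, was at 1.11±0.287 CPM (SD, *n*=7) and 0.957±0.596 CPM (SD, *n*=7), and *Cald1*, the most abundant of the list, was at 0.04. The 21 retinoid genes split into 12 lower and 9 higher with a median of −0.03, with *Pnpla2*, which encodes a triglyceride lipase, at −0.17 (unadjusted *p*=0.0364, adjusted *p*=0.998, edgeR) and *Rbp4*, the plasma retinol carrier, at 0.02. Across these lists edgeR gave 0 genes with an adjusted *p* below 0.05.

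**Figure D5:**
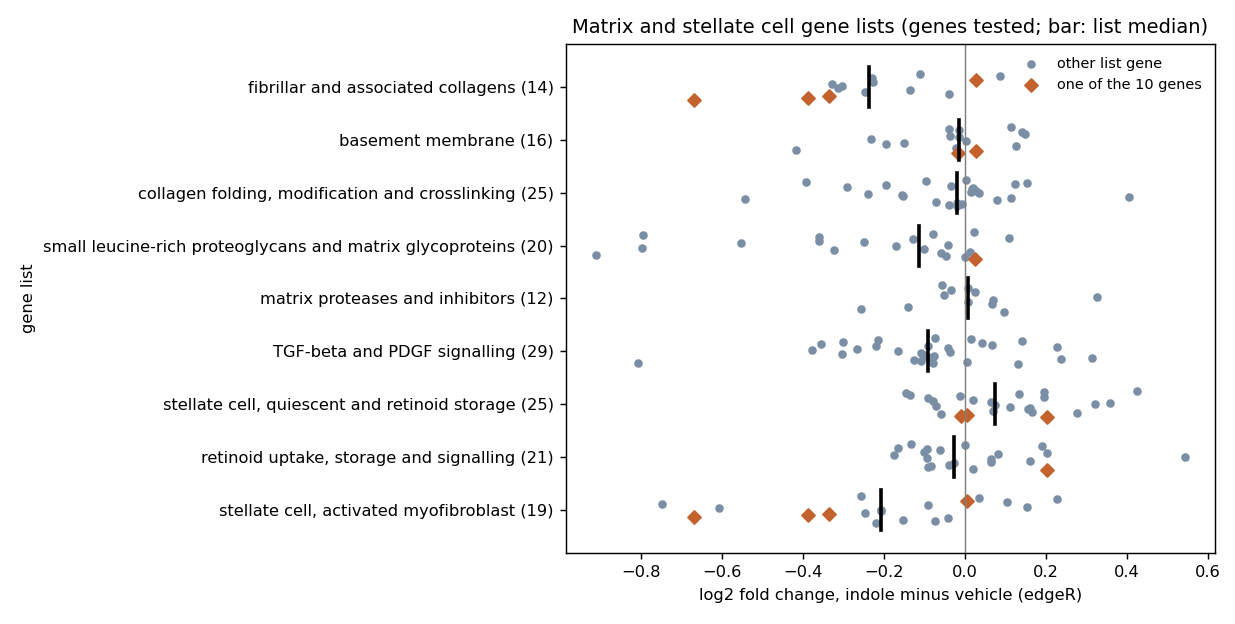
Log2 fold change (indole minus vehicle, edgeR) of each tested gene in 9 lists of matrix and stellate cell genes, with the number tested in parentheses, the median of each list as a bar and the 10 genes described here as diamonds. The medians run from −0.24 for the fibrillar and associated collagens to 0.07 for the quiescent stellate cell list, and *Col1a1*, *Col1a2* and *Col3a1* lie at the low end of the collagen list.

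Other cells of the lobe also make collagen or these markers, and several marker sums had an exact permutation *p* below 0.05. The exact *p*-values of the sums are given without adjustment over the marker lists. The summed level of 10 mesothelial markers was 305 to 366 CPM with vehicle (median 332) and 226 to 371 CPM with indole (median 257), with an exact permutation *p* of 0.0221. *Krt8*, which hepatocytes express too, makes up most of that sum. All 6 mesothelial markers tested were lower with indole, among them *Msln* at 2.21±1.17 CPM and 0.899±0.694 CPM and *Lrrn4* at 1.45±0.973 CPM and 0.288±0.309 CPM (SD, *n*=7), and both had 0 reads in at least 1 mouse. The 10 bile duct markers summed to 88.8 to 116 CPM with vehicle and 74.2 to 92.1 CPM with indole (exact permutation *p*=0.00291), and 7 of 8 tested were lower. For the 11 portal fibroblast markers the sums were 13.5 to 23.4 CPM and 11.4 to 20.9 CPM (exact permutation *p*=0.0775), with 7 of 8 tested lower, and the portal fibroblast markers *Gli1*, *Pi16* and *Clec3b* had at most 6 reads in any mouse.

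Higher with indole were the summed markers of B and plasma cells (3.80 to 5.98 CPM and 4.36 to 9.63 CPM, exact permutation *p*=0.00874) and of erythroid cells (204 to 384 CPM and 263 to 1094 CPM, exact permutation *p*=0.0449). Only 3 of the 8 B and plasma cell markers had enough reads to be tested. All 5 erythroid genes tested were higher, each with an unadjusted *p* below 0.05 and an adjusted *p* of 0.998 from edgeR, against 3.81% of all genes tested with such an unadjusted *p* in either direction. For the other 6 lists apart from that of the stellate cell, the exact permutation *p* of the sum lay between 0.119 and 0.959. Gene by gene, 12 of 12 sinusoidal endothelial markers tested were higher (median 0.24 on the log2 scale), as were 12 of 13 Kupffer cell and macrophage markers with a median of 0.20 and 8 of 9 vascular endothelial markers with a median of 0.20. The part of these cells in the values of *Col1a1* and *Col1a2* was not tested. Over the 14 mice *Col1a1* had an *r* of 0.70 with the portal fibroblast sum (permutation *p*=0.0043, adjusted *p*=0.0804; rho 0.73, permutation *p*=0.00391; 0.49 without the 2 farthest mice, 0.21 within vehicle and 0.77 within indole). With the mesothelial sum its *r* was 0.60 (permutation *p*=0.0182, adjusted *p*=0.137; rho 0.45, permutation *p*=0.104; 0.59 without the 2 farthest mice, −0.20 within vehicle and 0.43 within indole). Other sums gave *Col1a1* an *r* of like size. For the stellate cell sum it was 0.62 (permutation *p*=0.0211, adjusted *p*=0.14), with −0.12 without the 2 farthest mice, 0.75 within vehicle and 0.90 within indole. For the erythroid sum it was −0.62 (permutation *p*=0.0189, adjusted *p*=0.137), but 0.68 within vehicle and −0.61 within indole, so the sign differed between the groups. For vascular smooth muscle it was 0.59 (permutation *p*=0.0258, adjusted *p*=0.145), with 0.79 without the 2 farthest mice, 0.53 within vehicle and 0.79 within indole. With the bile duct sum the *r* of *Col1a1* was 0.53 (permutation *p*=0.0657, adjusted *p*=0.249) and its rho 0.82 (permutation *p*=0.00063). That *r* was 0.67 without the 2 farthest mice, and only 0.23 within vehicle and 0.27 within indole, while both levels were lower on average with indole. Of 120 such relations between the 10 genes and 12 marker sums, 4 had an adjusted *p* below 0.05, and all 4 were with the stellate cell sum: *Col14a1*, *Dcn*, *Lrat* and *Des*, with *r* from 0.82 to 0.90. In that order, *r* was 0.92, 0.14, 0.51 and 0.54 within vehicle and 0.91, 0.98, 0.95 and 0.93 within indole. Without the 2 farthest mice it was 0.77, 0.67, 0.76 and 0.61.

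The genes whose levels over the 14 mice were most like those of each member were taken as the 3 with the highest Pearson *r* among the 12643 other genes tested. For *Col1a1* they were *Mt1* (a metallothionein gene), *Ptgfrn* and *Susd2*, with *r* from 0.88 to 0.89. *Mt1* was at 340.0 CPM with vehicle and 189 CPM with indole on average (unadjusted *p*=0.0990, adjusted *p*=0.998, edgeR). For *Col1a2* they were *Htra1*, *Sgce* and *Tubb6* (0.89 to 0.92), and for *Col3a1* they were *Col5a1*, *Wnt4* and *Sox4* (0.90 to 0.92), *Col5a1* being a chain of the type V collagen found within fibrils. *Col14a1* was closest to *Loxl2*, *Mcam* and *Ppic* (0.91 to 0.92), *Loxl2* encoding a collagen crosslinking enzyme. *Dcn* was closest to *Fhl1*, *Ngfr* and *Tpra1* (0.89 to 0.91), *Lrat* to *Tpra1*, *Igfbp7* and *Zdhhc18* (0.88 to 0.90), and *Des* to *Ncoa7*, *Timp3* and *Ergic2* (0.86 to 0.87). *Reln* was closest to *Safb2*, *Rab24* and *Snx11* (0.87 to 0.91), *Col4a1* to *Ubald2*, *Snai1* and *BC002059* (0.83 to 0.84), and *Col4a2* to *Cdk5rap3*, *Copb1* and *Elac2* (0.84 to 0.86), none of which are matrix genes. Without the 2 mice farthest from the median of the member, *r* ran from 0.32 (*Tubb6* with *Col1a2*) to 0.88 (*Zdhhc18* with *Lrat*). Within vehicle it ran from 0.14 (*Ngfr* with *Dcn*) to 0.93 (*Safb2* with *Reln*). Within indole it ran from 0.86 (*Ptgfrn* with *Col1a1*) to 0.98 (*Cdk5rap3* with *Col4a2*). These likenesses are the highest among the 12643 genes outside the group and are given as a description, with no test.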

How the data were processed

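Strand-specific polyA libraries of the right liver lobe of 14 mice were analysed, 7 per group, with groups and mouse numbers taken from the sample labels. The authors trimmed adapters, aligned them to GRCm38 using HISAT2, used only reads that mapped uniquely and deposited raw counts per gene without normalisation. The counting tool is not given in the sources used here. All 14 columns of counts were used.

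From these counts, CPM and log2 CPM (prior count 2) were computed with TMM scaling. The main test was edgeR 4.0.16 (filterByExpr, robust quasi-likelihood) in R 4.3.3, with Benjamini–Hochberg adjustment over the 12653 genes tested. Standard errors were obtained as the log2 fold change over the root of the quasi-likelihood F. Single values were compared with exact two-sided permutation tests over mice, and correlations over 14 mice with 100000 resamples (SciPy 1.17.1). The totals of 15197498 to 21060376 reads leave a counting error that is largest for *Des* and *Col1a1*, at 11.3% and 8.78% of the mean count over the 14 mice.

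Alternatives were DESeq2 1.42.0, limma 3.58.1 voom with quality weights, RLE and upper quartile scaling, other filters, a fit that was not robust, and leaving out each mouse. The ratios between members, the marker sums as partners and the stellate marker covariate were added after seeing the data. The edgeR step was tested on simulated counts for the same comparison and recovered 169 of 200 genes changed by 1 on the log2 scale among 12653, with 9 false calls (DESeq2: 175 and 17).

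The 10 genes, the gene lists and the marker lists were chosen with earlier results of these data known. The text names all 10 genes, of each of the 9 pathway lists the most abundant tested gene and those with an unadjusted *p* below 0.05, the 3 genes most correlated with each member, and defining markers of other cell types beside a result. The chains of type VI collagen, *Acta2*, *Krt8* and the 3 portal fibroblast markers with few reads fall outside that rule or were singled out after their values were seen. Promoter sequences come from RefSeq. One gene of the lists is not reported here and was left out of the lists and sums.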

Additional observations from a re-analysis of the deposited data

Results flagged for a closer look

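Of 48 comparisons of the highest or lowest mouse of a group with the rest of it, 6 stood out by Dixon's ratio (the gap to the nearest mouse divided by the range of the group), where about 2.4 would by chance. Among the 10 genes it was *Col4a2* in the indole group, where G3 was the lowest mouse at 28.8 CPM with a ratio of 0.616, and the next mouse was at 40.3 CPM. G3 was at the same time the highest indole-treated mouse for *Col1a1*, *Col3a1*, *Col14a1*, *Dcn*, *Lrat* and *Des*.

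The others were marker sums. G8 of the indole group was the highest mouse for vascular endothelium (314 CPM, ratio 0.82), for Kupffer cells and macrophages (558 CPM, ratio 0.75) and for T and NK cells (12.7 CPM, ratio 0.862), while its *Col1a1* was at 6.26 CPM and its *Col14a1* at 61.9 CPM, both inside the indole range. G11 of the vehicle group was the highest for vascular endothelium (240.2 CPM, ratio 0.718) and G9 for bile duct epithelium (116 CPM, ratio 0.596). The indole-treated mouse G12, the lowest for 8 of the 10 genes, did not reach the critical value in any of them.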

How the results depend on the processing

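*Col1a1*, *Col1a2* and *Col3a1* were lower with indole under every alternative run. Without each mouse in turn, the log2 fold change of *Col1a1* lay between −0.82 (without G3) and −0.51 (without G12), with an unadjusted *p* from edgeR of 0.00409 to 0.0427, that of *Col1a2* between −0.48 and −0.24, and that of *Col3a1* between −0.48 and −0.20. *Lrat* was higher under each of the same alternatives (0.04 to 0.32). Values near 0 changed sign. With each mouse left out, *Col4a1* ranged from −0.0566 to 0.0507, *Col4a2* from −0.0128 to 0.097, *Col14a1* from −0.0401 to 0.142, *Dcn* from −0.044 to 0.106, *Reln* from −0.0928 to 0.0765 and *Des* from −0.0781 to 0.107. *Des* was at −0.0811 with limma voom, and with the stellate marker covariate *Col14a1* was at −0.0871, *Dcn* at −0.0526 and *Des* at −0.1155. DESeq2 gave 1 gene past the adjusted threshold in place of 0, and no filter on low counts gave 1336 genes with an unadjusted *p* below 0.05 in place of 482. The 18 correlated pairs became 4 with Spearman's rho, and 4 to 24 with each mouse left out, the 4 being without G12. The cause was not tested. No paired analysis was possible because the labels give each mouse its own number and pair no mice. Counts of 31 to 235 reads per mouse limit *Col1a1*, and p-values of the group comparisons set the difference of the means against the spread between these mice.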
